A study of Mus musculus with 48 samples.

Results

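Gene expression in nephritic kidneys was compared between Zeitgeber time 12 (ZT12), when the lights go off, and ZT8, late in the light phase. The comparison used the arrays whose source names in the labels give a nephritic kidney at one of these times, which were 10 of the 48 arrays of the series, with 5 arrays at ZT12 and 5 at ZT8. The mice were female NZB/W F1, a cross of the NZB and NZW strains whose females develop lupus nephritis without any induction. Nephritic mice were killed 2 to 3 weeks after proteinuria passed 300 mg/dl, before blood urea nitrogen reached 25. Kidneys were perfused with PBS, and whole kidney RNA was hybridised to Illumina MouseRef-8 v2.0 arrays. Young mice of the same strain, aged 12 weeks, gave 6 arrays at ZT12 and 4 at ZT8, which are used here for the same interval before disease. The nephritic mice were older, so age and disease cannot be told apart between young and nephritic mice. Each array is a separate sample in the labels, which do not say whether kidneys shared an animal or a cage, so p-values measure the spread between these arrays.

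In every cell the clock is built on the factors BMAL1 (gene Arntl) and CLOCK, which drive the genes of their own repressors (Per, Cry) and of the nuclear receptor REV-ERB alpha (Nr1d1), which represses Arntl. Clocks in the kidney are also set by signals that follow the rest and activity cycle of the animal, among them glucocorticoid, feeding and body temperature. In nocturnal mice glucocorticoid and body temperature rise towards lights off. Warmth acts through the heat shock factor HSF1, which induces chaperones, and through cold-inducible RNA-binding proteins such as CIRBP, whose RNA is higher in cooler cells.

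The 10 arrays all carried markers of kidney. Detected on all 10 were 13 of 16 tested markers of the proximal tubule and 11 of 11 of the thick limb and distal tubule. So were 12 of 12 of the collecting duct and 6 of 7 of podocytes. Of the 5 tested adrenal markers none was detected on all 10, and the enzymes Cyp11a1 and Cyp21a1 were detected on no array. Of markers of other tissues, 5 of 6 of pancreas and liver and 2 of 9 of adipose were also detected on all 10. Between 13568 and 14077 probes per array were detected above negative control beads (detection p under 0.05), and no pair of arrays held identical values. The median signal before normalization was 102 to 104 at ZT8 and 106 to 116 at ZT12, so it moved with time without overlap, and its part in the results was not tested.

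The titles of the arrays carry codes whose meaning is not given in the sources used here. At ZT8, replicates 1 to 3 have titles that start with CRS_1 and replicates 4 and 5 with CRS_2. At ZT12, replicates 1 and 2 start with HIL and replicates 3 to 5 with RX. Correlation of log2 signals over all tested genes was 0.990 within the HIL pair, 0.987 to 0.991 among RX arrays and 0.942 to 0.973 between HIL and RX. Results are therefore also given for HIL and RX separately. The study's own sample table lists nephritic ZT12 arrays in sets of 2 and 3 without naming the arrays, so that title code and array set cannot be told apart, and no code occurs at both times. The study also describes mice brought into remission by treatment, with kidneys taken at ZT12 among others. The labels give all 5 ZT12 arrays as nephritic. The study's sample table lists remission kidneys under RNA sequencing only and none under arrays. It names no single array, and what RX stands for is not given in the sources used here, a limit on every ZT12 and RX value below. Among the ZT8 arrays replicate 4 stood apart, with the lowest mean level of the proximal tubule marker list (0.61 below the mean of the 10 arrays on the log2 scale, against 0.17 to 0.44 above it for the other 4) and the highest of the tubular injury list (1.04 above it, against 0.98 to 0.02 below it).

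Few single genes passed the test. Of 11559 genes tested by limma with Benjamini-Hochberg adjustment over all of them, 4 differed between ZT12 and ZT8 at an adjusted p under 0.05 (0.0346% of genes), of which 1 rose (Chordc1, 0.00865%) and 3 fell (Cirbp, Rpain and Zmynd12, 0.026%). At an unadjusted p under 0.05 there were 1270 genes (11% of those tested), 526 higher (4.55%) and 744 lower (6.44%) at ZT12. For 351 genes (3.04%) the 5 ZT12 arrays lay all above or all below the 5 ZT8 arrays, 129 above (1.12%) and 222 below (1.92%). The median difference over all genes was 0.00 on the log2 scale. Which genes passed depended on single arrays. None of the 11559 passed in limma without ZT8 replicate 1, 2 or 3, or without ZT12 replicate 3 or 4, with 952 to 1168 genes at an unadjusted p under 0.05, and only Cirbp passed without ZT8 replicate 5. Without ZT8 replicate 4, 57 passed, 11 higher and 46 lower. A limma fit that took the title code for a random block passed 0 genes, and 641 had an unadjusted p under 0.05.

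The gene that rose encodes a cochaperone of HSP90. Chordc1 had log2 signals of 8.91, 9.16, 9.07, 9.18 and 9.13 on the ZT8 arrays, replicates 1 to 5, and of 10.03, 10.04, 9.91, 9.78 and 9.81 on the ZT12 arrays. The lowest ZT12 array lay above the highest ZT8 array, and the HIL and RX arrays both lay above. The difference was 0.82 ± 0.09 (SE, n = 5 and 5; 1.77-fold; limma adjusted p = 0.014). Against ZT8 it was 0.94 for the HIL arrays and 0.74 for the RX arrays, 2 comparisons that share the ZT8 arrays. In the fit with a random block for title codes the adjusted p of Chordc1 was 0.138.

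Cirbp, the cold-inducible RNA-binding protein, moved the other way and by more. Its log2 signals were 8.50, 8.33, 8.20, 8.36 and 7.96 on the ZT8 arrays and 6.87, 6.58, 6.84, 6.74 and 7.37 on the ZT12 arrays. All ZT12 arrays were below all ZT8 arrays, and ZT12 replicate 5 was the nearest to them. It fell by 1.39 ± 0.15 on the log2 scale (2.62-fold lower, limma adjusted p = 0.014), which was -1.55 for the HIL arrays and -1.28 for the RX arrays. In the random block fit the adjusted p of Cirbp was also 0.138. Rbm3, the other cold-inducible protein of this family, did not share the difference, at 0.08 ± 0.22 (adjusted p = 0.953) with overlapping arrays.

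Rpain encodes a protein that binds replication protein A and carries it into the nucleus. Its log2 signals were 8.81, 8.81, 8.87, 8.76 and 8.98 at ZT8 and 8.20, 8.20, 8.26, 8.06 and 8.11 at ZT12. The arrays of each time lay within a narrow band, and the bands did not overlap. Rpain fell by 0.68 ± 0.08 on the log2 scale (1.6-fold lower, limma adjusted p = 0.014, and 0.15 in the random block fit), by similar amounts for the HIL arrays (-0.65) and the RX arrays (-0.70). Zmynd12, which encodes a protein with a MYND zinc finger, was near the limit of detection. Its log2 signals were 5.28, 5.42, 5.30, 5.10 and 5.18 at ZT8 and 4.52, 4.36, 4.68, 4.49 and 4.68 at ZT12, where 2 of the 5 arrays detected it. It fell by 0.71 ± 0.09 on the log2 scale (1.64-fold lower, limma adjusted p = 0.0418, and 0.251 in the random block fit).

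The list of heat shock and cold-inducible genes had 18 tested members of 20. Chordc1 rose, Cirbp fell and the other 16 did not pass. Of the 18, 5 lay wholly above at ZT12 and 1 wholly below, where 1.12% and 1.92% of all genes did. At an unadjusted p under 0.05, 5 were higher and 1 lower, where 4.55% and 6.44% of all genes were. The median of the list was 0.16 on the log2 scale, against 0.00 for all genes. The 5 genes above were Chordc1, Ahsa1, Hsph1, Stip1 and Hspa8. Ahsa1, which speeds up the ATPase of HSP90, had log2 signals of 7.95, 7.91, 7.93, 8.07 and 7.89 at ZT8 and 8.33, 8.63, 8.64, 8.85 and 8.68 at ZT12, with no overlap. Its difference was 0.68 ± 0.10, and its limma adjusted p of 0.0507 missed the threshold. Hsph1, the HSP110 exchange factor of HSP70, was at 9.31, 9.67, 9.61, 9.90 and 9.68 at ZT8 and at 10.55, 10.57, 10.18, 10.35 and 10.08 at ZT12. The arrays again did not overlap, with a difference of 0.71 ± 0.13 (adjusted p = 0.0794).

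Further chaperones were looked up after their values were seen. Stip1, the adaptor that joins HSP70 to HSP90, had log2 signals of 9.44, 9.36, 8.99, 9.51 and 9.34 at ZT8 and 9.78, 10.13, 9.91, 9.92 and 9.72 at ZT12, a difference of 0.57 ± 0.12 without overlap (limma adjusted p = 0.0967). Dnajb1, an HSP40 that loads clients onto HSP70, was at 9.73 to 10.20 and 10.11 to 10.40, a difference of 0.37 ± 0.11 (adjusted p = 0.235). Hspa8, the constitutive HSP70, lay wholly above at ZT12 but by only 0.12 (adjusted p = 0.561). Hspb1, a small heat shock protein, ranged widely within each time, since ZT8 replicate 4 had 10.74 and the other ZT8 arrays 7.67 to 8.22, and its difference was 0.67 ± 0.60 (adjusted p = 0.767). Hsp90aa1, the inducible HSP90, was not detected on any ZT8 array and was detected on 3 of the 5 ZT12 arrays. Hspd1 and Hspe1, the mitochondrial chaperonins, differed by 0.00 and -0.04.

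**Figure D1:**
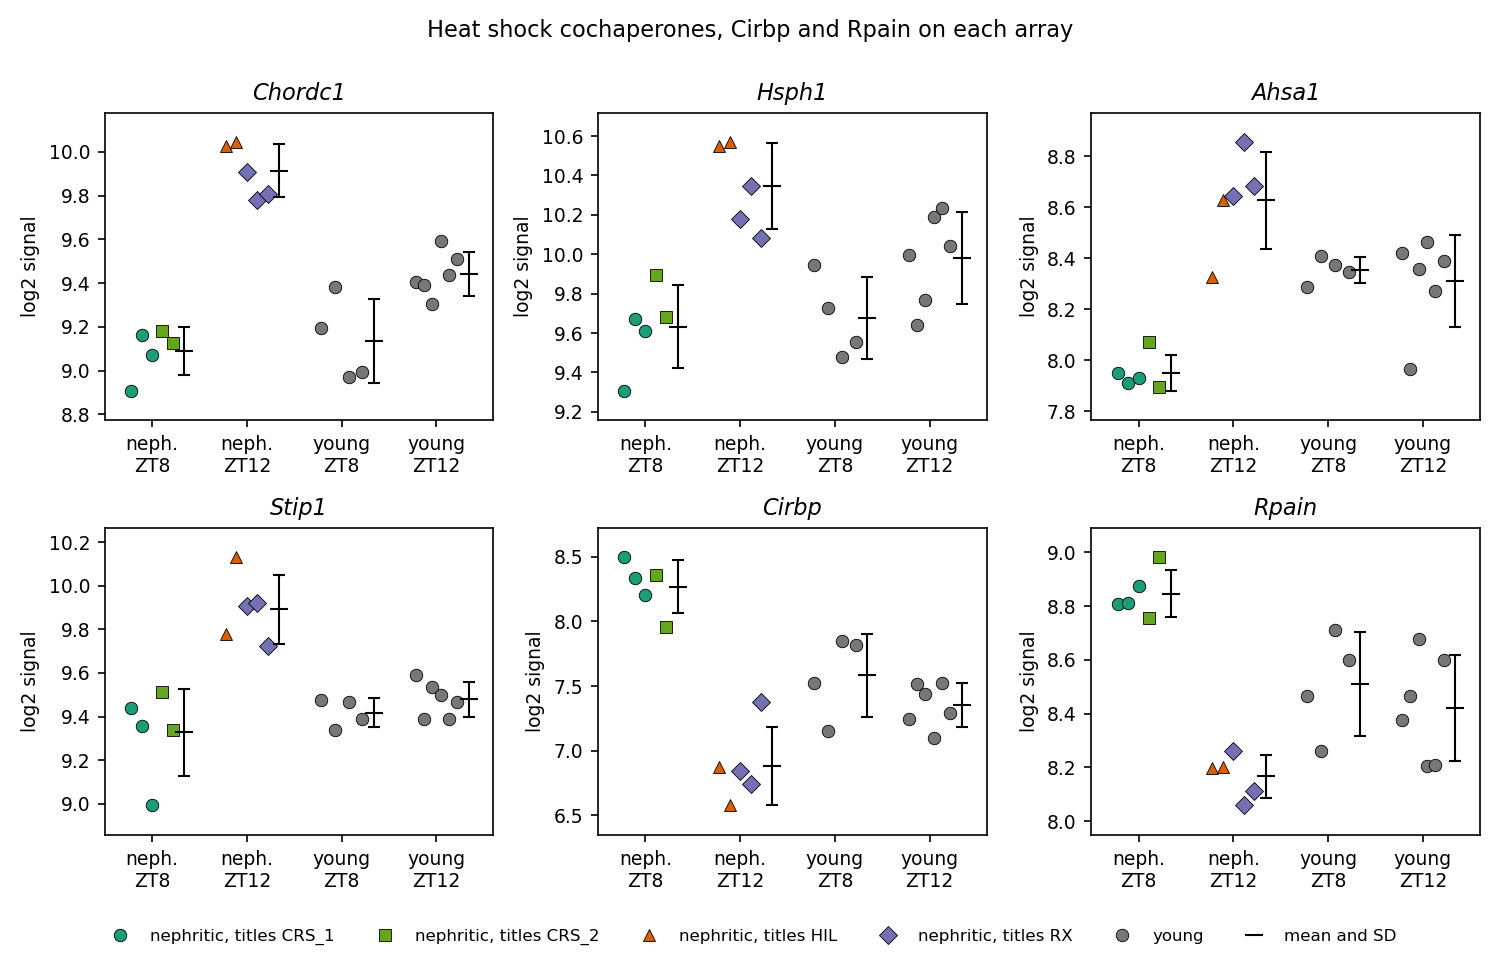
Normalized log2 signal of 4 cochaperone genes, Cirbp and Rpain on each array, by group, with the mean and SD beside the points and marker shapes for the title codes. Chordc1 sits at 9.78 to 10.04 on the nephritic ZT12 arrays, above all ZT8 arrays (8.91 to 9.18), and Cirbp sits lower at ZT12, while the young groups overlap for both genes.

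HSF1 binds a heat shock element, repeats of GAA in alternating orientation (GAA, then TTC on the same strand), and the start regions of these genes were therefore searched for it. The windows were the RefSeq promoters of GRCm38.p6, 300 bases from 250 before to 50 after a start, and a match was 3 such units, each 2 bases apart, in either order (GAA, TTC, GAA or TTC, GAA, TTC) and on either strand. This motif was chosen after the data were seen. It occurred in 179 of 27025 genes with a promoter in the table (0.662%) and in 0.504% of the tested genes that have one. Of the 4 genes that passed, all had a promoter in the table and Chordc1 held the motif, in 3 overlapping matches around the start. Of the 15 genes of the heat shock list with a promoter, 4 held it (26.7%), namely Chordc1, Hsph1, Hspe1 and Hspd1. The 2 mitochondrial genes have differences near 0, so the motif did not sort the members of the list. The promoters of Chordc1 (chr9:18292017-18292316, plus strand) and Hsph1 (chr5:149636266-149636565, minus strand, the more downstream of the 2 starts listed) are shown, that of Chordc1 because the gene passed and that of Hsph1, which did not pass, because its window holds the motif. The window of Ahsa1, the member of the list that came nearest to passing, held no match. Capitals mark the merged heat shock element matches in Chordc1. In Hsph1 they mark an E-box (CACGTG, the site of BMAL1 and CLOCK) and then a heat shock element.
Chordc1: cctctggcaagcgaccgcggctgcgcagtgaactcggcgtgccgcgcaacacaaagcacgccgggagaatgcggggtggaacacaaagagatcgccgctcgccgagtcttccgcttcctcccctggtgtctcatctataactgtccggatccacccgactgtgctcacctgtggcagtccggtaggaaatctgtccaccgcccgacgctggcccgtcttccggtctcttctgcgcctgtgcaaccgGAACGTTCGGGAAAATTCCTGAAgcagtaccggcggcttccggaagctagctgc
Hsph1: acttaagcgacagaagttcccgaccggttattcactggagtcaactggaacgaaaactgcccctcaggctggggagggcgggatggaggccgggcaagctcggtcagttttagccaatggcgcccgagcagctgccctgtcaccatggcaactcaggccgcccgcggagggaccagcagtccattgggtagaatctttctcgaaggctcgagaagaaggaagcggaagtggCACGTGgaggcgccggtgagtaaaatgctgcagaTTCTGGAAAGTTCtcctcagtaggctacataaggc

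The next genes by p that were higher at ZT12 had limma adjusted p from 0.0507 to 0.0773 and did not pass. Hnrnph1, a splicing factor, had log2 signals of 8.90, 8.89, 8.88, 8.64 and 8.85 at ZT8 and 9.21, 9.60, 9.59, 9.70 and 9.95 at ZT12 (0.78 ± 0.13, adjusted p = 0.0576). Tra2a, another splicing factor, differed by 0.75 (adjusted p = 0.0708), Cpsf6, which acts in cleavage of the 3′ end, by 0.65 (0.0734) and Pum2, which represses mRNAs through their 3′ ends, by 0.60 (0.0507). The ZT12 arrays of all 4 were wholly above the ZT8 arrays. Creld2, which cells induce when the endoplasmic reticulum is stressed, had 8.67, 8.47, 8.10, 8.17 and 7.88 at ZT8 and 9.15, 10.16, 9.44, 9.36 and 9.19 at ZT12, a difference of 1.20 ± 0.21 (2.3-fold, adjusted p = 0.0614). Sema7a, a membrane-anchored semaphorin, was higher by 0.69, Mon2, of endosome to Golgi traffic, by 0.37 and Aktip by 0.47, each without overlap.

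On the lower side the next genes by p were Accs, Rxrg, Wipi1, Asb9, Mvb12b, Trp53i13 and Nr1d1, all with non-overlapping arrays and limma adjusted p of 0.0507 to 0.0561. Wipi1, which binds phosphoinositides in autophagosome formation, had log2 signals of 8.53, 8.45, 8.41, 8.35 and 8.29 at ZT8 and 7.63, 7.68, 7.76, 7.82 and 8.02 at ZT12 (-0.63 ± 0.09). Asb9, a substrate adaptor of a ubiquitin ligase, was at 8.28 to 8.62 and at 7.62 to 7.99 (-0.66). Mvb12b, a subunit of the ESCRT-I sorting complex, differed by -0.57. Rxrg, a retinoid X receptor, was detected on 3 of the 5 ZT12 arrays, at 4.35 to 4.79 against 5.08 to 5.32 at ZT8. Accs differed by -0.75 and Trp53i13 by -0.46. These genes did not pass and their values are given as they are.

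None of the 16 tested members of the core clock list passed, and 4 were higher and 2 lower at an unadjusted p under 0.05, where 4.55% of all genes were higher and 6.44% lower. Nr1d1 was the nearest. Its log2 signals were 8.07, 8.57, 8.54, 7.51 and 8.38 at ZT8 and 6.48, 7.28, 5.79, 5.95 and 6.27 at ZT12. Every ZT12 array was below every ZT8 array, with the HIL arrays above the 3 RX arrays. The difference was -1.86 ± 0.29 (3.62-fold lower, limma adjusted p = 0.0561). Against ZT8 it was -1.33 for HIL (adjusted p = 0.022) and -2.21 for RX (adjusted p = 0.011), so each title code passed in the fit with 3 groups. With single arrays left out, the adjusted p of Nr1d1 was under 0.05 in 8 of 10 fits for HIL and in 9 of 10 for RX.

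Arntl, the target that REV-ERB alpha represses, was higher. It had 5.0, 4.52, 4.84, 5.08 and 4.67 at ZT8, where 4 of the 5 arrays detected it, and 5.17, 5.54, 6.21, 6.11 and 5.62 at ZT12. The groups did not overlap, and the lowest ZT12 array exceeded the highest ZT8 array by little. The difference was 0.91 ± 0.20 (1.88-fold, limma adjusted p = 0.109), at 0.54 for HIL (0.098) and 1.16 for RX (0.019, and under 0.05 in 7 of 10 fits with single arrays left out). Nfil3, a repressor whose gene REV-ERB alpha also represses, had 7.06, 7.17, 6.87, 7.88 and 7.16 at ZT8 and 8.05, 7.72, 9.11, 9.17 and 8.69 at ZT12. Only the HIL array of replicate 2 fell below the highest ZT8 array. The difference was 1.32 ± 0.30 (adjusted p = 0.124), and it was 0.66 for HIL (0.097) and 1.77 for RX (0.011, under 0.05 in 9 of 10 such fits).

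Dbp, a PAR bZIP factor that BMAL1 and CLOCK drive, had the largest difference of the clock and clock output genes. Its log2 signals were 12.00, 12.23, 12.31, 10.54 and 11.98 at ZT8 and 9.78, 10.05, 8.83, 9.80 and 10.59 at ZT12. ZT8 replicate 4 was far below the other ZT8 arrays, and ZT12 replicate 5 exceeded it slightly. The difference was -2.0 ± 0.38 (4-fold lower, limma adjusted p = 0.0798), and it was -1.90 for HIL (0.038) and -2.07 for RX (0.048). Both calls of Dbp rested on single arrays, since they held in 3 of 10 and 1 of 10 fits that left out one array, where the adjusted p reached 0.199 for HIL and 0.130 for RX. Ciart, a repressor of BMAL1 and CLOCK, was again lowest at ZT8 on replicate 4 (5.40, against 6.46 to 6.94) and stood at 4.63 to 6.59 at ZT12 (-1.28 ± 0.41, adjusted p = 0.27).

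The Per genes did not separate the times. Per1, which glucocorticoid also induces, had 9.21, 8.53, 8.48, 8.32 and 8.75 at ZT8 and 8.87, 8.10, 8.80, 9.08 and 9.24 at ZT12 (0.16 ± 0.23, 95% interval -0.34 to 0.66, limma adjusted p = 0.862). Per2 had 8.74, 8.60, 9.05, 8.20 and 9.09 at ZT8 and 9.20, 8.36, 9.71, 9.85 and 9.99 at ZT12 (0.69 ± 0.30, adjusted p = 0.434). For Per2 the 3 RX arrays were well above all ZT8 arrays, while one HIL array was just above the highest ZT8 array and the other lay among them, with 1.11 for RX (0.041), 0.05 for HIL (0.93) and -1.07 for HIL minus RX (0.027). With single arrays left out, the adjusted p of Per2 was under 0.05 in 3 of 10 fits for RX against ZT8 (up to 0.176) and in 7 of 10 for HIL minus RX, which then ranged from -1.48 to -0.65 (up to 0.230). Clock differed by 0.29 (0.421), Nr1d2 by -0.42 (0.502), Per3 by -0.16 and Cry2 by -0.15. The other tested members of the core clock list (Rora, Bhlhe40, Csnk1d, Csnk1e and Timeless) differed by -0.00 to 0.32, and Npas2 was not detected on the ZT8 arrays. In the clock output list of 10 tested genes none passed either, and Tef, Hlf, Usp2, Nampt, Cys1, Tspan4, Leo1 and Dnmt1 had adjusted p above those of Dbp and Ciart.

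**Figure D2:**
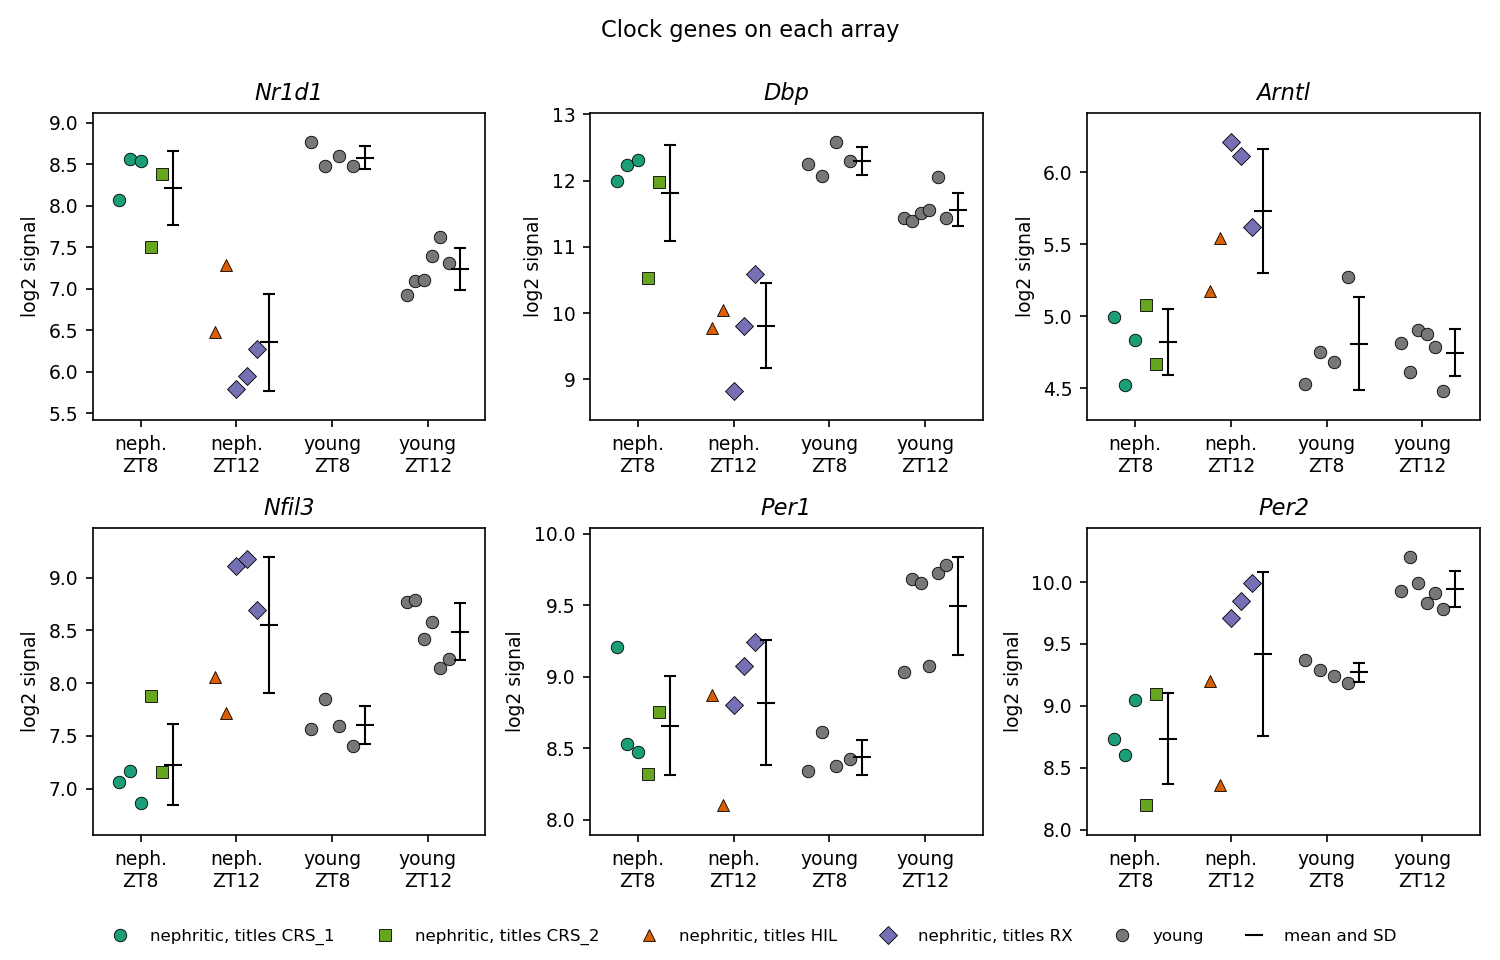
Normalized log2 signal of clock genes on each array, by group, with the mean and SD beside the points. Nr1d1 and Dbp are lower and Arntl and Nfil3 higher on the nephritic ZT12 arrays, and ZT8 replicate 4 lies low for Dbp (10.54).

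The start regions of the 13 core clock genes with a promoter in the RefSeq table (GRCm38.p6) were searched for the sites of clock factors, as a description. The core of the element that ROR activators and REV-ERB repressors share, TAGGTCA on either strand, occurred in Arntl and Nfil3. It occurred in 2.97% of all genes with a promoter and in 2.54% of the tested genes that have one. An E-box (CACGTG) occurred in Per1 and Ciart (8.09% of all such genes, 11.1% of the tested ones). A D-box (TTATGTAA or TTACGTAA, either strand) occurred in Per3 and Timeless (1.23% and 1.06%). Arntl and Nfil3 are the 2 members that hold the ROR core, and both had the higher signals at ZT12 described above. Their promoters are shown for that reason, with the core in capitals (TAGGTCA in Arntl, its reverse complement in Nfil3). The windows are chr7:113207261-113207560 on the plus strand for Arntl, the more downstream of 2 listed starts, and chr13:52980990-52981289 on the minus strand for Nfil3. The more upstream Arntl window held no match. The ROR core also occurred in Zmynd12, which fell, so its presence had no single direction.
Arntl: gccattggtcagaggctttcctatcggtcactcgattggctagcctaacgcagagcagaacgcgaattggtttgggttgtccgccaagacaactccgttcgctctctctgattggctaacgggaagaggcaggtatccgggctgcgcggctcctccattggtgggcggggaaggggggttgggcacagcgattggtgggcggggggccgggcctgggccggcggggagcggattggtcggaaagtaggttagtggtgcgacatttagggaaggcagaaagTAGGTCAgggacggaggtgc
Nfil3: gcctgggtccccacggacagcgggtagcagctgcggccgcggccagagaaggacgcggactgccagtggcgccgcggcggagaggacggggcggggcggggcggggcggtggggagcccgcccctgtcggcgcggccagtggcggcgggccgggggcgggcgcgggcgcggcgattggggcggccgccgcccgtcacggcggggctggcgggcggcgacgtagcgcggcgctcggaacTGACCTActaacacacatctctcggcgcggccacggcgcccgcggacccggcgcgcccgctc

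The glucocorticoid list holds target genes, the receptor Nr3c1, the carrier Serpina6 and the steroid enzymes Hsd11b1 and Hsd11b2. Of its 19 tested genes (22 listed, without Zbtb16, Tat and Cebpd), none passed over the 5 ZT12 arrays. At an unadjusted p under 0.05, 4 were higher, where 4.55% of all genes were, and the median difference was 0.18 against 0.00 for all genes. In the fit with 3 groups, 3 of the 19 were higher and none lower on the RX arrays than at ZT8, where 0.926% of all genes were higher. On the HIL arrays 1 was higher and 2 were lower, where 6.24% and 7.06% of all genes were. With single arrays left out, the RX count ranged from 0 to 6 higher, and the HIL counts from 0 to 5 higher and 0 to 3 lower. Fkbp5, a cochaperone of the glucocorticoid receptor and one of its targets, had 7.08, 6.68, 6.76, 7.98 and 7.12 at ZT8 and 8.14, 7.94, 8.73, 8.85 and 8.86 at ZT12. ZT8 replicate 4 overlapped the HIL arrays and no other ZT8 array did. The difference was 1.38 ± 0.27 (2.6-fold, limma adjusted p = 0.0851), with 0.92 for HIL (0.058) and 1.69 for RX (0.017, and under 0.05 in 7 of 10 fits with single arrays left out).

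Tsc22d3, which encodes the glucocorticoid-induced leucine zipper, had 9.49, 9.38, 9.65, 9.20 and 9.32 at ZT8 and 9.89, 9.46, 10.47, 11.06 and 10.91 at ZT12. Sgk1, a kinase that activates epithelial sodium transport, had 11.39, 10.34, 11.15, 10.40 and 10.86 at ZT8 and 11.13, 10.67, 12.41, 12.79 and 12.81 at ZT12. For both genes the RX arrays lay above all ZT8 arrays, while the HIL arrays lay among or near them. Over the 5 arrays the differences of Tsc22d3 and Sgk1 were 0.95 ± 0.28 (limma adjusted p = 0.227) and 1.13 ± 0.43 (0.36). For RX against ZT8 they were 1.41 (0.011) and 1.84 (0.012), and for HIL against ZT8 they were 0.27 (0.36) and 0.07 (0.9). The direct comparison, HIL minus RX, was -1.14 ± 0.20 (0.0059) for Tsc22d3 and -1.78 ± 0.31 (0.0053) for Sgk1. With single arrays left out, the RX difference held under 0.05 in 8 of 10 fits for each gene and HIL minus RX in 9 of 10 for each.

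Other members of the glucocorticoid list were looked up after their values were seen. Errfi1, a feedback inhibitor of the EGF receptor, had 12.30, 12.16, 12.17, 12.24 and 12.05 at ZT8 and 11.57, 11.10, 12.62, 12.44 and 12.79 at ZT12. The HIL arrays were below all ZT8 arrays and the RX arrays above them, so the 5 ZT12 arrays together differed by -0.08 (limma adjusted p = 0.967) and HIL minus RX by -1.29 (0.0025). Klf9, a Krueppel-like factor that glucocorticoid induces, was at 10.71 and 10.55 in HIL and 11.37 to 11.58 in RX (-0.82, 0.003), and Dusp1, a phosphatase of MAP kinases, differed by -1.80 (0.044). HIL minus RX held under 0.05 in all 10 fits with single arrays left out for Errfi1 and Klf9, and in 3 of 10 for Dusp1. RX against ZT8 did not pass for Errfi1 (0.43, adjusted p = 0.10), Klf9 (0.18, 0.34) or Dusp1 (0.73, 0.41). HIL against ZT8 ranged from -1.09 to -0.62 for Errfi1 and from -0.73 to -0.57 for Klf9 with single arrays left out. It was under 0.05 in 9 of 10 of those fits for each, and in 0 of 10 for Dusp1. Of the 19 tested genes of the list, 5 were lower in HIL than in RX and none higher, where 9.91% of all genes were lower and 12.4% higher.

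**Figure D3:**
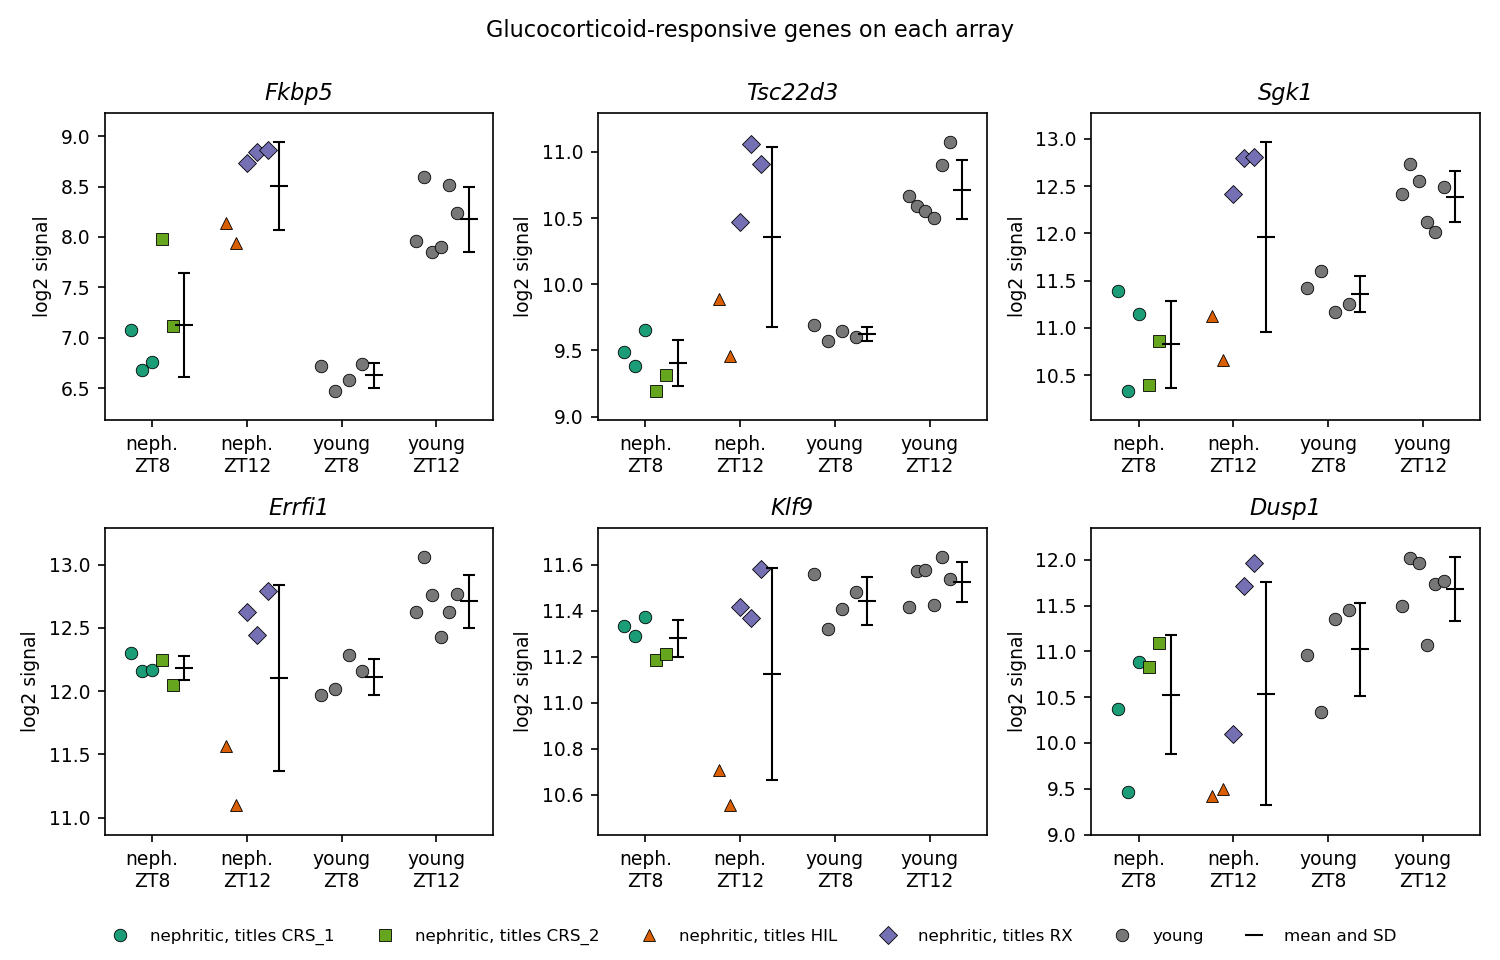
Normalized log2 signal of glucocorticoid target genes on each array, by group, with the mean and SD beside the points and marker shapes for the title codes. For Sgk1 the RX arrays sit at 12.41 to 12.81, above the HIL arrays (10.67 and 11.13) and above all nephritic ZT8 arrays.

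In the immediate early list none of 20 tested genes passed, 4 were higher at an unadjusted p under 0.05, where 4.55% of all genes were, and the median difference was 0.25 against 0.00 for all genes. Ccn2, the connective tissue growth factor, had 11.75, 10.77, 11.02, 11.34 and 11.15 at ZT8 and 12.43, 12.07, 12.04, 11.93 and 12.02 at ZT12, with no overlap (0.89 ± 0.17, limma adjusted p = 0.0851). Ccn1, its paralog, had 5.85, 5.48, 6.31, 6.50 and 5.79 at ZT8 and 6.87, 7.27, 7.04, 6.57 and 6.87 at ZT12 (0.94 ± 0.20, 0.102). Both are targets of the mechanosensitive factor YAP. Ier3 differed by 0.55 (0.572). Among the sterol genes, Dhcr7, the last enzyme of cholesterol synthesis, was lower on every ZT12 array (5.19 to 5.30) than on every ZT8 array (5.49 to 5.69), at -0.35 (0.0961).

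More genes passed between the title codes inside ZT12 than between the times. In the fit with 3 groups, 2578 genes (22.3%) differed between HIL and RX arrays, 1433 higher (12.4%) and 1145 lower (9.91%) in HIL. HIL arrays differed from ZT8 in 1537 genes (13.3%), 721 higher (6.24%) and 816 lower (7.06%), and RX arrays in 210 (1.82%), 107 higher (0.926%) and 103 lower (0.891%). These 3 counts moved with single arrays. Leaving out one array at a time gave 397 to 3598 genes for HIL minus RX, 0 to 3073 for HIL minus ZT8 and 0 to 455 for RX minus ZT8. HIL minus ZT8 had 0 genes without ZT12 replicate 2 (1975 at an unadjusted p under 0.05), 512 without replicate 1 and 3073 without ZT8 replicate 4. RX minus ZT8 had 0 without ZT12 replicate 4 (1796 unadjusted) and 9 without replicate 5. Within ZT8, the 3 CRS_1 arrays and the 2 CRS_2 arrays differed in 0 genes by limma, with 698 at an unadjusted p under 0.05 (6.04%). That fit kept all ZT12 arrays in a single group, so its spread included the difference between HIL and RX. The median residual SD of a gene was 0.232 over the ZT12 arrays and 0.155 over the RX arrays. The 0 genes between CRS_1 and CRS_2 are therefore not on the scale of the 2578 between HIL and RX. This contrast within ZT12 was chosen with the difference between HIL and RX already known.

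Of the 10 genes with the smallest p between HIL and RX, 8 were lower in HIL. Cat, the catalase of peroxisomes, had 8.92, 9.03, 9.42, 8.54 and 8.75 at ZT8, 7.52 and 7.60 on the HIL arrays and 9.47, 9.77 and 10.01 on the RX arrays. The HIL arrays were below every ZT8 array and the RX arrays above every one. HIL minus RX was -2.19 ± 0.24 (limma adjusted p = 0.0025). Ugt1a10, which conjugates glucuronic acid to drugs, had 11.78 to 12.40 at ZT8, 10.43 and 9.93 in HIL and 12.40 to 12.84 in RX (-2.46 ± 0.21, 0.0025), and since the genes of the Ugt1a cluster share exons its probe may read others of them. Ehhadh (-2.40) and Pex7 (-1.75) of peroxisomal fatty acid oxidation, Slc25a20 (-1.18), the carnitine carrier of mitochondria, Cyp4a31 (-2.71), Gsta2 (-2.73) and Cryz (-1.27) were lower in HIL, each with an adjusted p of 0.0025. Those 8 genes passed in all 10 fits that left out one array.

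The other 2 of these 10 genes were higher on the HIL arrays. Fes, a tyrosine kinase of myeloid cells, had 7.41, 7.74, 7.41, 7.77 and 7.45 at ZT8, 8.76 and 9.01 in HIL and 7.43, 7.39 and 7.19 in RX. The RX arrays lay below the ZT8 range or at its lower end and the HIL arrays above it (HIL minus RX 1.55 ± 0.16, limma adjusted p = 0.0025). Arrb2, the beta-arrestin of many chemokine receptors, differed by 1.35. Cd74, the invariant chain of MHC class II, had 13.19 and 13.50 in HIL and 11.77 to 12.39 in RX (1.36, 0.0066), and H2-Eb1, a class II chain, differed by 1.35. Timp1, an inhibitor of matrix proteases, ranged from 5.81 to 9.57 within ZT8 itself, with 10.68 and 10.95 in HIL and 6.65 to 8.91 in RX (3.30 ± 1.07).

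In HIL against RX, 11 of 16 proximal tubule markers were lower and none higher (median -1.16), as were 20 of 36 genes of fatty acid metabolism (-0.74), 14 of 23 amino acid and organic ion transporters (-0.88) and 9 of 24 of mitochondrial respiration (-0.50), where 9.91% of all genes were lower and the median of all was 0.04. Higher in HIL were 17 of 29 interferon response genes (median 0.71), 12 of 18 of antigen presentation (1.18), 14 of 25 of matrix (1.07, with 1 lower) and 7 of 26 of tubular injury (1.12), where 12.4% of all genes were higher. Against ZT8, which both comparisons share, the HIL arrays had 7 proximal tubule markers lower, 10 antigen presentation genes higher and 8 matrix genes higher, where 7.06% of all genes were lower and 6.24% higher, and the RX arrays had none of these. With single arrays left out, these 3 HIL counts ranged from 0 to 15, 0 to 12 and 0 to 13. The counts of HIL minus RX then ranged from 3 to 13 for the proximal tubule, 9 to 21 for fatty acid metabolism, 2 to 16 for the transporters and 1 to 14 for mitochondrial respiration on the lower side. On the higher side they ranged from 1 to 20 for interferon response, 1 to 13 for antigen presentation, 0 to 15 for matrix and 0 to 15 for tubular injury, and the medians of all 8 lists kept their sign. The medians of 3 leukocyte marker lists differed between the title codes at both times. The median of HIL minus RX was 1.44 for T and NK cell markers (2 of 16 higher), 1.32 for B and plasma cell markers (1 of 12) and 0.89 for myeloid markers (3 of 15), with none lower. Of all genes 12.4% were higher in HIL, so these counts alone do not set the lists apart. With single arrays left out, the counts higher ranged from 1 to 7, 0 to 5 and 0 to 5. Inside ZT8 the medians of CRS_1 minus CRS_2 were 0.72, 1.64 and 0.43 for the same 3 lists, with no gene passing. Neutrophil markers had medians of 0.21 for HIL minus RX and 0.29 for CRS_1 minus CRS_2, with 0 of 7 passing in each. The mean level of the T and NK list was 0.33 and 1.18 on the HIL arrays and -0.53 to -0.10 on the RX arrays. For the B and plasma cell list it was 0.31 and 1.52 against -0.82 to -0.16, and for the myeloid list 0.36 and 1.05 against -0.38 to 0.08. On the ZT8 arrays these 3 lists ran from -0.81 to 0.50, from -1.01 to 0.83 and from -0.63 to 0.17. The part of these cells in the HIL results was not tested. In bulk kidney, fewer cells of a type and less RNA per cell cannot be told apart.

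The mean level of the proximal tubule markers, each gene centred on the 10 arrays, was -0.84 and -1.05 on the HIL arrays and 0.21 to 0.60 on the RX arrays. At ZT8 it was -0.61 on replicate 4 and 0.17 to 0.44 on the others. The tubular injury list was at 0.89 and 0.97 in HIL, 1.04 on ZT8 replicate 4 and between -0.98 and 0.17 on the other 7 arrays. The time comparison of nephritic kidneys was therefore also fitted with the proximal tubule level as a covariate, an addition made after the data were seen. Then 170 genes passed (1.47%), 53 higher (0.459%) and 117 lower (1.01%), among them 4 higher and 1 lower of the heat shock list, 3 higher and 1 lower of the core clock list, 3 higher of the glucocorticoid list and 2 higher of the immediate early list.

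**Figure D4:**
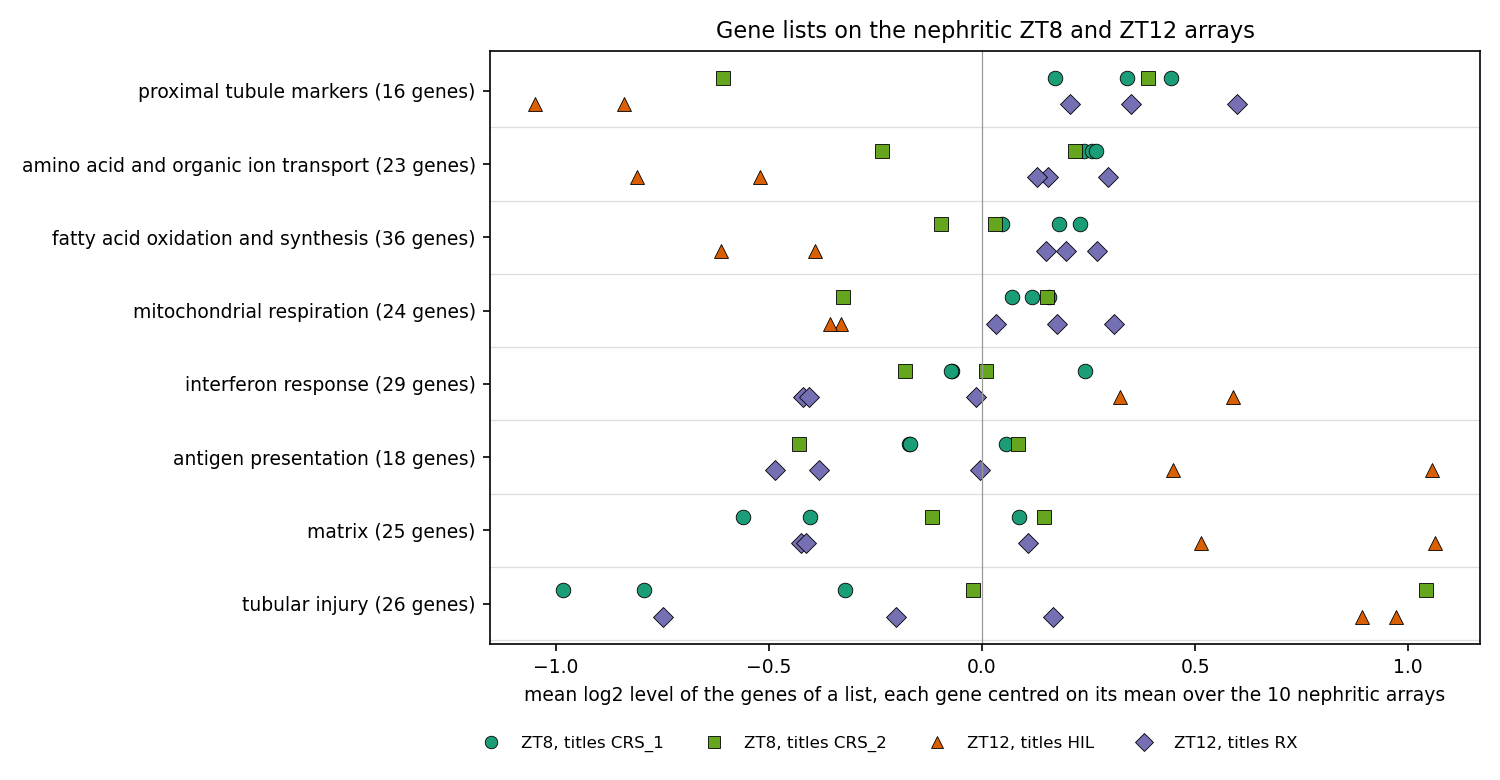
Mean log2 level of gene lists on the 10 nephritic arrays, each gene centred on its mean over these arrays, with one point per array and marker shapes for the title codes. The HIL arrays lie at -0.84 and -1.05 for the proximal tubule markers, and the ZT8 replicate at -0.61 is replicate 4.

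The same interval in young kidneys, 6 arrays at ZT12 and 4 at ZT8, gave 98 genes (0.848%), 71 higher (0.614%) and 27 lower (0.234%), beside 4 in nephritic kidneys. The young count was 18 to 91 with single arrays left out, with 18 without young ZT8 replicate 4, and 34 with only those young ZT12 arrays whose titles start with CR3. Adipose markers had a median young difference of 1.28. At an unadjusted p under 0.05, 5 of 9 were higher, where 876 of 11559 genes were, and none passed. The adrenal list mean reached 1.79 on a young ZT12 array, against at most 0.10 on the nephritic arrays. The part of fat or adrenal tissue in the young and interval results was not tested. The median residual SD of a gene was 0.166 and 0.159 at ZT8 and ZT12 in young arrays and 0.185 and 0.232 in nephritic ones. The difference between the nephritic and the young interval was tested by limma on the 20 arrays, and 0 genes passed, with 954 at an unadjusted p under 0.05 (8.25%). No gene is therefore shown to differ between the 2 intervals. The 98 young genes had a median absolute difference of 0.601 in young kidneys, and the median nephritic difference in the young direction was 0.297. Of them 81 (82.7%) had the same sign in nephritic kidneys, where 57.6% of all genes had. At an unadjusted p under 0.05 in nephritic kidneys 31 of the 98 had the same sign. Of all genes 11% had such a p, with either sign. Across all genes, which are not independent, Pearson's r of the 2 intervals was 0.31 and Spearman's rho 0.24.

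Some of these genes had the same direction in both, with nephritic values taken over the HIL and RX arrays together. HIL and RX were apart for Sgk1 (0.07 and 1.84 against ZT8), Tsc22d3 (0.27 and 1.41) and Nfil3 (0.66 and 1.77). Nr1d1 fell by 1.34 in young kidneys (limma adjusted p = 0.00048) beside -1.86 in nephritic ones, Fkbp5 rose by 1.55 (0.00048) beside 1.38, Sgk1 by 1.03 (0.0061) beside 1.13, Tsc22d3 by 1.09 (0.00076) beside 0.95, Ccn2 by 1.11 (0.002) beside 0.89 and Nfil3 by 0.88 (0.014) beside 1.32. The glucocorticoid list had 6 genes higher in young kidneys, where 0.614% of all genes were, with a median of 0.56. In nephritic kidneys it had none, where 0.00865% of all genes were higher, with a median of 0.18, and no gene passed for the difference between the intervals. Per1 rose in young kidneys by 1.06 (0.011) beside 0.16, and the difference between the intervals was -0.90 ± 0.29 (0.40). Dbp fell by 0.74 (0.031) beside -2.0, with a difference of -1.26 (0.43).

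Chordc1 and Cirbp, which passed in nephritic kidneys, did not pass in young ones, and the difference between the intervals passed for neither. Chordc1 lay at 8.97 to 9.38 at ZT8 and 9.30 to 9.6 at ZT12 in young kidneys, which overlap (0.31, limma adjusted p = 0.17), and the nephritic interval exceeded it by 0.52 (0.25). Cirbp lay at 7.15 to 7.85 and 7.09 to 7.52 (-0.23, 0.47), so that its nephritic ZT8 arrays (7.96 to 8.50) were above every young array used here, and the intervals differed by -1.16 (0.11). Ahsa1 differed by -0.04 in young kidneys and Stip1 by 0.06. Arntl differed by -0.06 (0.88) in young kidneys beside 0.91, and that difference was 0.97 ± 0.25 (0.27). Aktip, which binds AKT and takes part in vesicle traffic, had the smallest adjusted p for the difference between the intervals (0.081), at -0.33 in young and 0.47 in nephritic kidneys. Slc35f3, Fgf10, Tafa5 and Nrap were lower in the nephritic interval than in the young one by 1.02, 1.02, 0.78 and 1.09 (0.11 each), and Ralyl, Slc25a48 and Pex16 by 0.93, 0.91 and 0.73 (0.24 each).

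**Figure D5:**
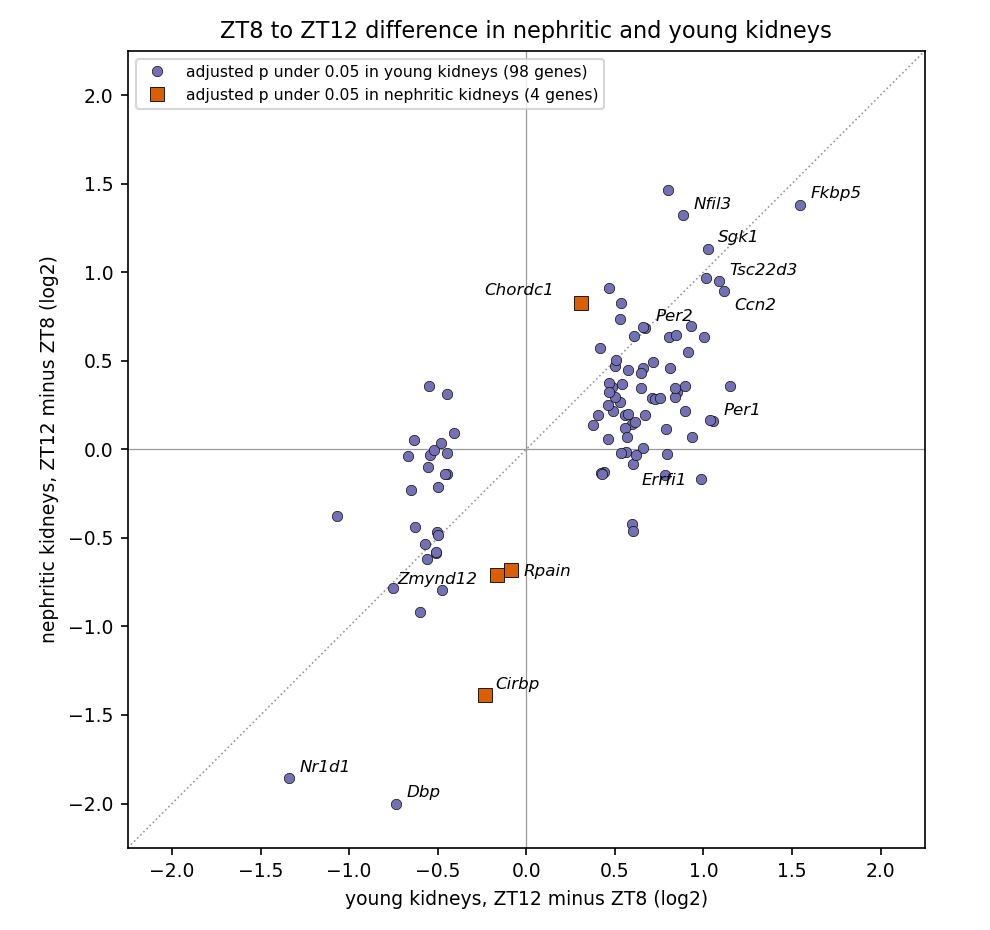
Difference ZT12 minus ZT8 in log2 signal, young kidneys on the horizontal axis and nephritic kidneys on the vertical axis. Only genes that passed in young (98) or nephritic (4) kidneys are drawn, with a marker for each set. Cirbp lies at -1.39 in nephritic and -0.23 in young kidneys, and the 98 young genes mostly have the same sign in both (81 of 98).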

How the data were processed

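RNA of perfused kidneys was measured on 1-colour Illumina arrays. The authors scanned the chips and extracted, with GenomeStudio (version not given in the sources used here), an intensity per probe on a linear scale and a detection p-value, both deposited per array. The deposited intensities carry no background subtraction, although the methods describe one, and were not normalized between arrays. A processed intensity table, also deposited, entered as an alternative setting.

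For the 48 arrays together, neqc of limma 3.58.1 (offset 16, R 4.3.3) removed background through the detection p-values, quantile-normalized and took log2. The 25697 probes split into 23978 with a single gene symbol and 1719 with none. Probes detected on at least 3 arrays were kept (16980), and the probe with the highest mean stood for a gene (11559 genes). Times were compared with lmFit and eBayes on the 10 nephritic arrays, with Benjamini-Hochberg adjustment over all genes and a threshold of 0.05. Values with ± for differences are SE. Arrays were grouped by source name, and replicates were numbered in the order of listing. Fits of HIL, RX and ZT8 as 3 groups, of young arrays and of the difference between the intervals were made the same way. The scripts were tested on simulated data. Precision is limited by how many arrays there are and by their signal above background.

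Named genes were all tested core clock and clock output genes, the genes past the threshold with the next by p up to 10 per direction, up to 3 genes with the largest difference of every other list, and up to 10 by p for HIL minus RX and for the difference between intervals. Members and lists were chosen with earlier results of these data known. Alternatives covered background correction, the processed table, the filter, the probe rule, the arrays in the fit, array weights, a title-code block and leaving out each array.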

Additional observations from a re-analysis of the deposited data

Results flagged for a closer look

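A gap test for single arrays was applied to 372 groups of 5 values, those of 153 genes and 33 gene lists at each time in nephritic kidneys. A value counted as standing apart when its gap to the nearest other array was over 0.71 of the group's range, which chance gives in about 1 in 20 groups. It found 32 values, and 17 of them were low values of ZT8 replicate 4.

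On ZT8 replicate 4 the low log2 signals were those of Per3 (5.30), Dbp (10.54), Hnrnph1 (8.64), Rxrg (5.08), Fbp1 (11.20), Sdhb (9.87), Ltf (4.59), Ptpro (6.35), Tcf21 (6.08), Emcn (8.79) and Nrap (5.30). The low list means on that array, relative to the 10 arrays, were -0.33 for mitochondrial respiration, -0.13 for sterol synthesis, -0.23 for amino acid and organic ion transport, -0.47 for podocyte markers, -0.61 for proximal tubule markers and -0.91 for endothelial markers. At ZT8, Sema7a was high on replicate 1 (6.65), Alas2 and Hbb-b2, genes of red cells, on replicate 2 (7.30 and 6.75) and Tspan4 on replicate 5 (5.39).

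At ZT12, Ccn2 was high on replicate 1 (12.43), where the endothelial marker list was low (-0.36). Timeless (6.81), Creld2 (10.16), Mgp (12.91) and Hbb-b2 (4.87) were high on replicate 2, Clock (9.31) on replicate 3 and Tafa5 (5.39) on replicate 4. Accs was low on replicate 4 (6.59), and Krt20 (4.90) and Dnajb1 (10.11) were low on replicate 5.

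Inside ZT12, 22.3% of all genes differed between HIL and RX in limma at an adjusted p under 0.05. The 153 genes examined here include those chosen by their p for HIL minus RX. They also include genes added after their values were seen, Errfi1, Klf9 and Dusp1 among them. Their count therefore cannot be set against the share of all genes. Of the 153, 44 differed, given as HIL minus RX on the log2 scale. Of clock and glucocorticoid genes these were Per2 (-1.07), Nfil3 (-1.10), Sgk1 (-1.78), Tsc22d3 (-1.14), Errfi1 (-1.29), Klf9 (-0.82) and Dusp1 (-1.80). Of metabolism they were Acot3 (-2.67), Acox2 (-1.36), Slc25a20 (-1.18), Ehhadh (-2.40), Pex7 (-1.75), Cat (-2.19), Cyp4a31 (-2.71), Gsta2 (-2.73), Ugt1a10 (-2.46), Cryz (-1.27), Hk2 (1.68), Slc2a2 (-1.10), Fbp1 (-1.71), Atp5o (-0.92), Sdhb (-1.17), Cox5a (-0.77) and Srebf2 (0.73). Of transport they were Slc6a19 (-1.998), Slc22a12 (-1.17), Slc22a8 (-2.76), Slc13a3 (-2.42) and Slc35f3 (-0.53), and of genes typical of liver Apoa2 (-3.85) and Apoc3 (-0.81). Those higher in HIL also included Edn1 (2.34), Pdgfb (1.30), Dhx58 (1.17), C1qb (1.54), C4b (1.73), Timp1 (3.30), Tnc (1.59), Col1a1 (2.13), Cd74 (1.36), H2-Eb1 (1.35), Nes (1.20), Arrb2 (1.35) and Fes (1.55).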

How the results depend on the processing

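Of 51 genes followed through the alternatives, 1287 of 1323 values kept the direction of the main value, and the 4 genes that passed kept theirs in 26 of 26. The arrays of these 4 genes do not overlap between the times, so settings that only left out or reweighted those arrays could not reverse the direction. Their adjusted p was under 0.05 in 17 (Chordc1), 18 (Cirbp), 17 (Rpain) and 13 (Zmynd12) of those 26, and in 4, 5, 4 and 2 of the 10 fits that left out one array. The count of genes that passed between ZT12 and ZT8, 4 as reported, was 30 on median-scaled raw signals, 41 on the processed table, 26 without the filter, 14 with every probe tested, 27 in a fit of all 22 nephritic arrays, 239 in a fit of all 48, 241 with array weights, 978 with HIL as the only ZT12 arrays, 93 with RX only, 29 with CRS_1 as the only ZT8 arrays and 170 with the proximal tubule covariate. It was 0 with CRS_2 only (668 at an unadjusted p under 0.05), with title codes as a random block (641) and by the exact Mann-Whitney test, where 5 against 5 allow no p below 0.00794 (916 unadjusted). It ranged from 0 to 57 when single arrays were left out. The young count of 98 (71 higher, 27 lower) was 63 on median-scaled raw signals (39 higher, 24 lower), 61 without the filter and 34 with only those young ZT12 arrays whose titles start with CR3, and 18 to 91 with single arrays left out. The difference between the intervals had 3 genes on median-scaled raw signals, 1 on the processed table, 1 without the filter, 809 with HIL and CR3 as the only ZT12 titles, and 0 to 3 with single arrays left out. Leaving out single arrays gave 0 to 3073 for HIL minus ZT8, 0 to 455 for RX minus ZT8, 397 to 3598 for HIL minus RX and 0 to 9 for CRS_1 minus CRS_2. On median-scaled raw signals the split into higher and lower was 928 and 608 for HIL minus ZT8, 71 and 200 for RX minus ZT8 and 2031 and 800 for HIL minus RX. The causes were not tested.

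Values that changed sign were all of genes that did not pass. On the log2 scale Hlf was -0.0026 on median-scaled raw signals, -0.056 with HIL only and -0.062 with CRS_1 only. Cry2 was 0.012 with array weights and 0.071 with RX only. Usp2 was 0.0096 with array weights, 0.012 with the random block, 0.25 with RX only, 0.027 with CRS_2 only and 0.13 with the covariate. Per3 was 0.24 with RX only, 0.091 with CRS_2 only and 0.092 with the covariate. Csnk1d was -0.15, -0.095 and -0.046 under the same 3 settings. Per1 was -0.17, Rora -0.19, Bhlhe40 0.023 and Dnmt1 0.37 with HIL only. Rora was -0.015 and Tspan4 -0.13 with CRS_2 only, and Bhlhe40 was 0.12 and Dnmt1 0.079 with CRS_1 only. With single arrays left out, Bhlhe40 ranged from -0.097 to 0.097, Per3 from -0.50 to 0.0995, Hlf from -0.074 to 0.077, Usp2 from -0.20 to 0.14 and Dnmt1 from -0.20 to 0.11. No paired analysis was possible because the labels give no replicate numbers that the nephritic ZT8 and ZT12 arrays share. Small numbers of arrays and signals near background, as for Zmynd12 and Rxrg at ZT12, limit what could be detected.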
